A study of Homo sapiens with 8 samples.

Results

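The centromeric region of chromosome 18 is described here through the ChIRP peaks listed from position 15000000 up to 22000000 of genome build hs1, by peak start. This rule took 2243 of 32035 peaks from asynchronous cells and 2128 of 33553 peaks from mitotic cells. The cells were RPE1, a human cell line from the retinal pigment epithelium made immortal with telomerase, wild type in every library. ChIRP recovers an RNA together with the chromatin it touches by means of biotinylated antisense probes, here against α-satellite RNA, and the recovered DNA is sequenced. The study comprised 8 libraries, and for each condition, labelled Async or Meta, the merged Odd and Even probe libraries gave 1 deposited peak list; the Input and Scr libraries were not analysed here. With 1 list per condition no difference between conditions could be tested, sequencing depth is unknown, and the 95% intervals below cover counting error only and treat neighbouring peaks as independent.

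α-Satellite is the tandem repeat on which human centromeres are built. Monomers of about 170 bp are arranged into blocks, the higher-order repeats, which follow each other in many nearly identical copies. The main array of chromosome 18 is known as D18Z1. Centromeric chromatin carries nucleosomes with the histone variant CENP-A, on which the kinetochore assembles, and α-satellite is transcribed at a low level in human cells. The series title links α-satellite RNA on chromatin to SAF-A, an RNA-binding protein of the nuclear scaffold. No sequence or repeat annotation of build hs1 was used, so positions are given without a repeat class and the name of the array could not be checked against its sequence. Antisense probes can also pair with satellite DNA, and DNA held by RNA cannot be told apart from DNA bound by the probes in these lists.

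The listed peaks marked out a single block of 5.58 Mb, thinly covered at its left end and densely at its right. It ran from 15542879 to 21125721, and no gap between neighbouring peaks inside it exceeded 36178 bp in the asynchronous or 13284 bp in the mitotic list. At the left end, the first asynchronous peak was narrow and weak, at chr18:15543254-15543498 with 245 bp and a fold enrichment of 3.94. Fold enrichment is the authors' ratio of pileup to local background for each peak, with a scaling that is not stated, and served to rank peaks within a list. The first mitotic peak, at chr18:15542879-15546170, was 3292 bp wide with a fold enrichment of 7.95. At the right end both lists stopped in a wide and strong peak, 29994 bp with a fold enrichment of 14.5 in asynchronous cells and 45742 bp with 15.1 in mitotic cells. These last peaks ended at 21125470 and 21125721. Outside the window chromosome 18 held 5 asynchronous and 22 mitotic peaks, with median widths of 204 and 220 bp and highest fold enrichments of 4.15 and 5.83. The nearest of them lay at 12396630 and 23838880 in the asynchronous list, and at 13818126 and 23087779 in the mitotic list. The block was therefore flanked by 1.72 Mb on the left and 1.96 Mb on the right without a peak of either list. The outermost 57.1 kb on the left, up to 15599999, was covered over 22.8% in asynchronous and 42.5% in mitotic cells, and the outermost 25.7 kb on the right over 99 and 100%.

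Inside the block most of the sequence was covered, by fewer but wider peaks in the mitotic list. Asynchronous peaks covered 4.37 Mb, 78.3% of the block, and mitotic peaks covered 4.54 Mb, or 81.3%. The ratio of covered length, mitotic over asynchronous, was 1.04, while the ratio of peak numbers was 0.949. The window held 7.0% of all asynchronous peaks (6.73 to 7.29%) and 6.34% of all mitotic peaks (6.08 to 6.61%), but 9.20% and 9.43% of the covered length of the lists. Median width was 1193 bp in the asynchronous list (1117 to 1250 bp), with quartiles of 620 and 2320 bp. For mitotic peaks it was 1296 bp (1222 to 1368 bp), with quartiles of 693 and 2518 bp. Both orders turned when weak peaks were left out (fold enrichment under 6 or −log10 q under 5), with 1906 asynchronous and 1984 mitotic peaks of median width 1421 and 1398 bp. Such a fixed limit may not be equally strict in both lists, whose scaling is not stated and whose array medians of fold enrichment differ, at 8.85 and 10.4. Over the whole lists the medians were 868 and 796 bp. Wide peaks carried much of the coverage: the 153 asynchronous peaks of at least 5000 bp held 30.8% of the covered length, and the 182 such mitotic peaks held 35.4%. Peaks were separated by short gaps, with medians of 254 and 252 bp and a smallest gap of 101 bp in both lists. Gaps under 300 bp made up 56.4% of asynchronous and 58.2% of mitotic gaps.

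The widest peaks lay at 2 places in both lists. The first began 1.21 Mb from the left end, where asynchronous peaks of 42795 and 55348 bp followed each other at chr18:16766553-16809347 and chr18:16809450-16864797. Mitotic peaks of 60840 and 48666 bp lay there at chr18:16755055-16815894 and chr18:16816055-16864720, so that 110 kb was covered with a short interruption. Of their lengths 99 and 100% was covered in the asynchronous list, with interruptions at other positions, since the first of them met 3 asynchronous peaks. The peaks named here had fold enrichments of 15.2 and 14.9 in the asynchronous and 15.7 and 16.1 in the mitotic list. The second place was the right end of the block, with asynchronous peaks of 28994 bp (chr18:21031527-21060520) and 29994 bp (chr18:21095477-21125470) and the mitotic peak of 45742 bp (chr18:21079980-21125721). The next widest peaks were an asynchronous one of 17720 bp at chr18:20933377-20951096, of which 54.6% was covered in the mitotic list, and a mitotic one of 28721 bp at chr18:19066578-19095298, which met 6 asynchronous peaks. The fifth mitotic peak by width was the exception to sharing. It measured 25646 bp, lay at chr18:15600601-15626246 near the left end with a fold enrichment of 10.1, and met no asynchronous peak.

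The peaks with the highest fold enrichment were much narrower, and 4 of the 5 strongest asynchronous ones began within 0.364 Mb of the left end. The strongest asynchronous peak, however, was at the right end, at chr18:21060726-21065222, with a fold enrichment of 17.0, the second highest of the whole list. The others were at chr18:15907226-15911820 with 16.5, chr18:15868728-15875398 with 15.7, chr18:15898401-15901571 with 15.6 and chr18:15736603-15737498 with 15.6. The mitotic list had its strongest peak in the same right-end area, at chr18:21028452-21031446, with a fold enrichment of 17.1. Its next ones were at chr18:20086803-20089149 with 16.7, chr18:15736652-15737494 with 16.6, chr18:17210079-17211447 with 16.6 and chr18:15865328-15868520 with 16.5. The short peak that starts at 15736603 or 15736652, only 896 and 843 bp wide, thus ranked among the 5 strongest of the array in both. Each of these 10 peaks was covered over at least 88.2% of its length in the other list.

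In fixed bins of 100 kb, 57 of the 70 bins of the window held at least 10 kb of coverage in at least 1 list, and the other 13 held no peak at all. The 55 bins between the outermost ones lay wholly inside the block. Their covered share ran from 48.1 to 97.7% in the asynchronous list, with a median of 81.8%, and from 49.3 to 96.1% in the mitotic list, with a median of 85.1%. More than 80% was covered in 30 asynchronous and 36 mitotic bins. The fullest bin was the last whole one, from 21000000, with 97.7% and 95.6%, built from only 11 and 13 peaks with median widths of 6510 and 4866 bp. The bins from 16800000 (94.0% and 94.9%), 15800000 (95.6% and 93.3%), 19900000 (93.0% and 94.4%) and 16000000 (90.5% and 96.1%) followed. Coverage and number of peaks ran in opposite directions along the array: the bins with most peaks were among the least covered. Spearman's rho between covered share and peak number over the 55 bins was -0.61 in asynchronous and -0.68 in mitotic cells. The rho between covered share and median fold enrichment was 0.54 and 0.69. Missing numbers in the running peak names show calls removed before deposit. The rho between covered share and the percentage of calls kept was 0.78 and 0.74. Whether the removal of calls shaped the profile was not tested. These are descriptions, since neighbouring bins share libraries, read placement and reference sequence.

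**Figure D1:**
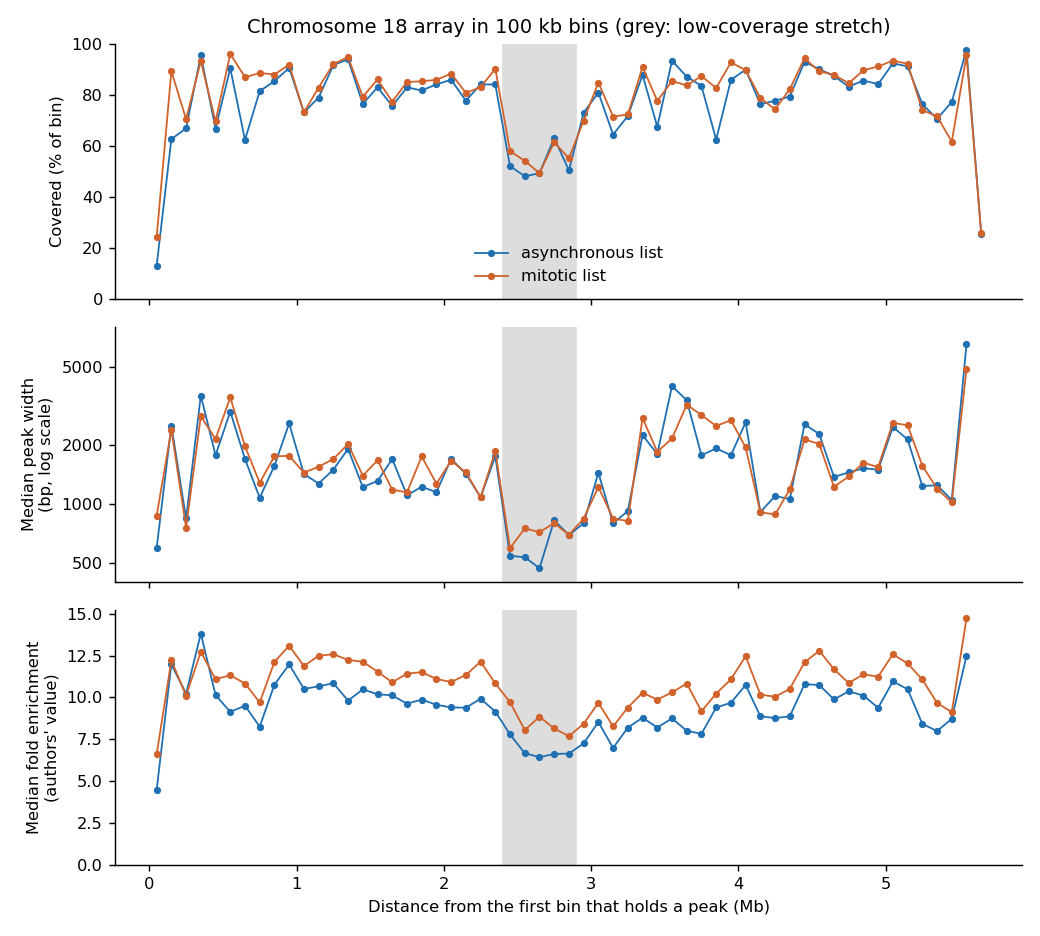
Covered share, median peak width (log axis) and median fold enrichment of peaks per 100 kb bin, plotted against the distance from the first bin that holds a peak, in Mb, for the asynchronous (blue) and mitotic (orange) list; each point is 1 bin of 1 list, and peaks belong to the bin of their start. In the grey stretch of 5 bins covered share lies between 48.1 and 63.1% in both lists, and peak width and fold enrichment are low as well.

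Away from the thinly covered left end, coverage was low in 1 place inside the block, in both conditions. In the 5 consecutive bins from 17900000 to 18399999 it was 52.1, 48.1, 49.3, 63.1 and 50.4% in the asynchronous list. In the same bins of the mitotic list it was 58.0, 54.1, 49.3, 61.4 and 55.1%. These were the only bins inside the block under 65% in both lists, a limit set after the values had been seen, and the stretch was picked on coverage. The bin before it was at 84.1% and 90.3%, and the bin after it at 73.1% and 70.0%. Of the 5 least covered bins of the array, 3 lay in this stretch, those from 18000000, 18100000 and 18300000, and the other two were the bins at the ends of the block, of which the left one was thinly covered and the right one reached only partly into the block. The edge towards lower positions was abrupt, whereas towards higher positions coverage returned over several bins.

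Peaks in this stretch were numerous, narrow and weak. It held 328 asynchronous and 323 mitotic peaks, or 65.6 and 64.6 per 100 kb, against 38.0 and 35.5 to its left and 37.4 and 35.5 to its right. Median width was 644 bp in the asynchronous list, against 1393 bp on the left and 1346 bp on the right. Mitotic peaks had 719 bp, against 1518 and 1466 bp. Only 1 asynchronous and 2 mitotic peaks there reached 5000 bp. The median gap was 482 and 427 bp, against 231 to 233 bp on either side in both lists. Median fold enrichment was 6.71 in the stretch of the asynchronous list, with quartiles of 5.47 and 7.86, and 9.90 and 8.80 to its left and right. In the mitotic list it was 8.17, with quartiles of 6.92 and 9.83, and 11.5 and 10.3 outside. These traits were not confined to the stretch. The bin from 18600000, outside it, held 66 asynchronous and 65 mitotic peaks. Their median widths were 795 and 842 bp and their median fold enrichments 6.98 and 8.26. The lists also shared least in the stretch. The Jaccard index, shared over combined covered base pairs, was 55.4% in the stretch, 84.7% to the left and 82.0% to the right, and the 5 bins had the 5 lowest values of the 55. A lower coverage by itself lowers this index. More calls had been removed here before deposit. Peak names are numbered along the genome with missing numbers, by which 61.4% of calls from asynchronous and 60.5% from mitotic cells were kept, against 76.0 to 77.7% and 78.5 to 81.3% outside. Whether this removal had a part in the dip was not tested.

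Within the low-coverage stretch the covered sequence recurred at a regular distance of about 2040 bp, which is 12 monomers of 170 bp. This was measured as the correlation of coverage with itself after a shift along the chromosome, from 300 to 9000 bp. In the asynchronous list the correlation had maxima at shifts of 2040, 4070, 6100 and 8150 bp, with r of 0.23, 0.23, 0.21 and 0.17. In the mitotic list they were at 2030, 4070, 6100 and 8150 bp, with r of 0.28, 0.31, 0.24 and 0.23. Lower maxima lay about midway between these shifts. At a shift of 1500 bp r was -0.03 in both lists. To the left of the stretch r was as high at 1500 bp as at 2040 bp, 0.22 in asynchronous and 0.15 in mitotic cells, and to the right the values at these shifts were 0.13 and 0.14 in asynchronous and 0.16 and 0.17 in mitotic cells. Peak starts showed the same distance: 13.1% of neighbouring asynchronous starts and 16.7% of mitotic starts in the stretch were 2000 to 2099 bp apart, against 3.80 to 5.17% in the parts outside. The number of pairs of starts 1900 to 2149 bp apart was 148 and 155, against 46 and 47 pairs 1400 to 1649 bp apart. Outside the stretch the longer distance was also commoner, with 123 and 115 pairs against 85 and 78 on the left. On the right there were 149 and 156 pairs against 106 and 86. The values of the stretch were taken after it had been picked on coverage. The lists share a reference sequence, so their likeness is not independent support, and the repeat of the reference, the placement of reads and the chromatin-bound RNA cannot be told apart as its source.

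**Figure D2:**
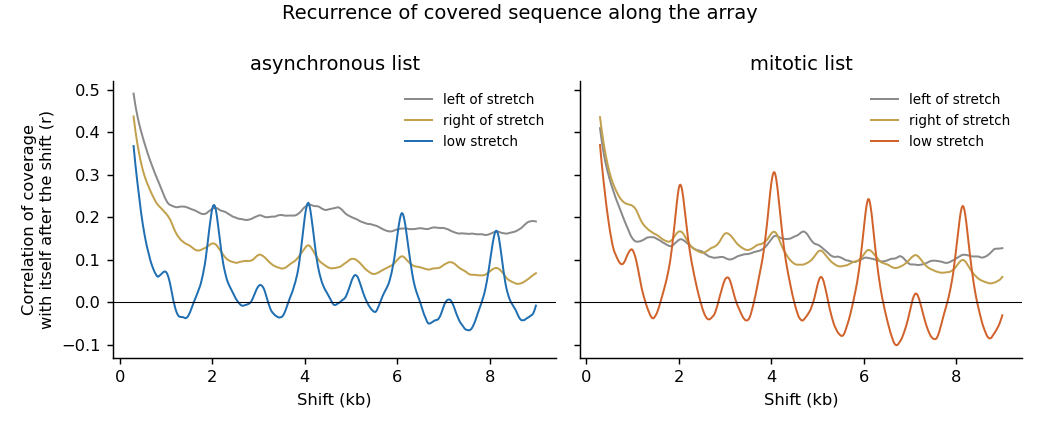
Correlation of coverage with itself (r) against the shift in kb, for the low-coverage stretch (coloured) and the parts of the block to its left (grey) and right (ochre), in steps of 20 bp, in the asynchronous and the mitotic list. In the stretch r rises to 0.23 and 0.28 near 2040 bp and again near 4070, 6100 and 8150 bp, with lower maxima midway between these and values below 0 beside them; outside the curves are flatter and stay above 0.

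To see which part of the repeating unit was covered, the stretch was folded on a single period. Of all periods between 1950 and 2130 bp, tried every 0.5 bp, 2035.5 bp gave the largest spread of coverage over the folded unit in both lists. The stretch holds 246 such units. The unit was cut into 12 equal parts of 170 bp, numbered from the first base of the stretch, so that the numbers themselves are arbitrary and part 12 adjoins part 1. Coverage was far from even over the unit. In the asynchronous list parts 12 and 1 were covered over 77.5 and 79.7% of their summed length, and parts 4 to 7 over 59.5 to 61.2%. Parts 8, 9 and 10 were covered over 29.8, 30.1 and 35.5%. In the mitotic list parts 12 and 1 reached 82.9 and 85.2%, parts 4 to 7 lay at 64.7 to 68.2%, and parts 8, 9 and 10 at 28.3, 24.5 and 30.6%. Part 3, between the well covered parts, was at 41.1% in asynchronous and 48.1% in mitotic cells. Parts 2 and 11 were at 56.29 and 39.52% in asynchronous and 61.65 and 38.69% in mitotic cells. Summed over the stretch, coverage was thus highest in parts 12 and 1 and rose again, less far, in parts 4 to 7. Between these it dipped at part 3 and more deeply from part 8 to part 11, with the lowest values in parts 8 to 10. The borders of the parts are arbitrary, so the lengths of these rises were not measured.

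The most and least covered parts lay in similar places in both 250 kb pieces of the stretch. In the first 250 kb, up to 18150000, the most and least covered parts were at 83.2 and 28.0% in asynchronous and 86.9 and 25.7% in mitotic cells. In the remaining 250 kb they were at 76.1 and 27.1%, and 83.6 and 22.7%. The most covered part was part 1 in both pieces of both lists, and the least covered was part 8 or 9. Peak starts were concentrated in part 11, just before the strong block, with 108 of 328 asynchronous starts (32.9%) and 112 of 323 mitotic starts (34.7%), where an even spread over the unit would give 8.33%. Part 1 held 3 and 1 starts. The period and the stretch were both chosen on these data, and no test was made. A period chosen for the largest spread over the whole stretch favours pieces that line up. The likeness of the pieces is therefore not separate support.

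**Figure D3:**
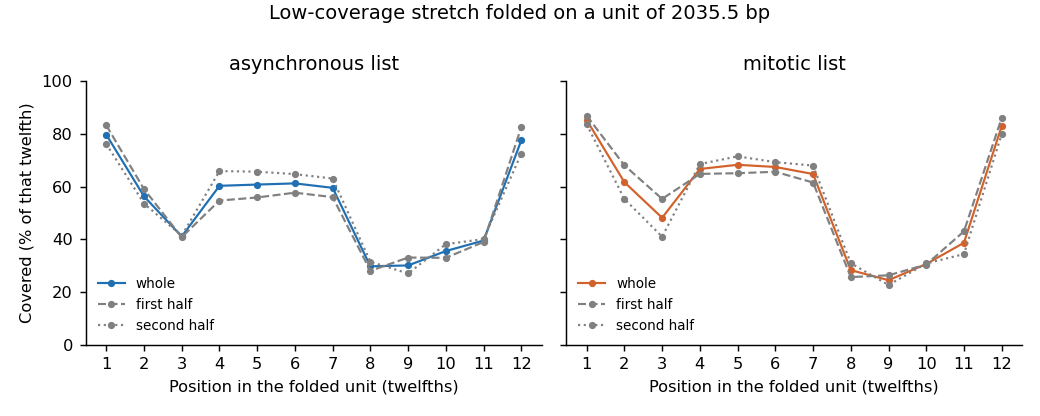
Covered share of each twelfth of the folded unit of 2035.5 bp in the low-coverage stretch, for the asynchronous and the mitotic list; the coloured line is the whole stretch, the dashed and dotted grey lines its first and second 250 kb. Parts 12 and 1 lie highest and parts 8 to 10 lowest in every line.

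Uneven coverage of the folded unit was also seen in bins next to the stretch, 1 towards lower and 4 towards higher positions. When each bin inside the block was folded on its own on the same period, the difference between the most and least covered twelfth was 51.7 to 68.1 percentage points in the 5 bins of the stretch in the asynchronous list. In the mitotic list it was 58.2 to 71.3 points. Over the other 50 bins the median was 11.9 and 13.1 points. A difference of at least 25 points in both lists, a limit chosen after the values had been seen, was met by 10 bins, and these were consecutive, from 17800000 to 18799999. Which twelfths were high in each bin was not compared. The highest values elsewhere were 22.8 points in asynchronous and 27.1 points in mitotic cells. A bin that is nearly full leaves less room for such a difference. The period was also chosen on the stretch, and a unit of slightly different length elsewhere would be flattened by this folding. How far these limits account for the lower values elsewhere was not tested. Outside the stretch the shift correlation still had maxima near this period. To the right of the stretch they were at 2020 and 2030 bp, with r of 0.14 and 0.17. To the left they were at 2050 bp in both lists, with r of 0.22 and 0.15. Maxima away from multiples of this period were higher on the left. They lay at 4720 bp in the asynchronous list (r of 0.224 against 0.222) and 4700 bp in the mitotic list (0.167 against 0.149). On the right the period with the largest spread was 2036.0 bp in both lists. The difference between the most and least covered twelfth over those 2.73 Mb was only 6.37 and 7.44 points. To the left the best periods were 2027.0 and 2029.5 bp, with differences of 4.98 and 5.41 points. Any change of phase along these longer parts lowers such a value.

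Over the whole array, the most frequent distance between 2 asynchronous starts less than 5000 bp apart was 4050 to 4099 bp, with 121 pairs. For mitotic starts it was 2000 to 2049 bp, with 140 pairs. The low-coverage stretch held 48 of these asynchronous and 63 of these mitotic pairs. Between neighbouring starts the commonest distance was 2000 to 2049 bp in both lists, with 61 and 90 pairs. Between neighbouring ends it was shorter, 1050 to 1099 bp with 67 asynchronous pairs and 950 to 999 bp with 65 mitotic pairs. Over all pairs, the choice between the classes that begin at 2000 and 4050 bp depended on the point measured. In classes of 50 bp midpoints gave 2000 bp and ends gave 4050 bp in both lists, but in classes of 25 bp asynchronous midpoints gave 4050 bp. The median distance between neighbouring starts was 1827 bp (1750 to 1903 bp) for asynchronous and 1948 bp (1824 to 2001 bp) for mitotic peaks, an order that also turned without the weak peaks, at 2101 and 2046 bp. Starts sat on a grid, with 98.9% and 99.3% lying 0 to 5 bp past a multiple of 25 bp, so a distance is resolved to about 25 bp.

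Comparison of the conditions bin by bin addressed whether the recovered part of the array changed in mitosis. Of the 55 bins inside the block, 42 had more and 13 less covered length in mitotic cells. The median log2 ratio was 0.04, and 47 bins differed by no more than 10%. A bin was counted as differing where 1 list had at least 25% more covered length than the other. There were 4 such bins with more mitotic coverage among the 57 bins of the array, or 7.02%, against 11.7% of the 820 bins of all chromosomes with at least 10 kb covered. There was 1 bin with less mitotic coverage, or 1.75%, against 6.22% over all chromosomes. Both shares were below those of all bins, and neither difference was tested. A bin covered over more than 80% in 1 list cannot have 25% more coverage in the other. Inside the block, 30 asynchronous bins could therefore not be counted as higher in mitotic cells, and 36 mitotic bins could not be counted as lower. Nearly full bins also leave less room for a difference over 10%. How far this lowered the shares was not tested. The counts were small and moved with the setting: without the weak peaks 8 bins were higher and 0 lower in mitotic cells, and in bins of 50 kb 9 were higher and 1 lower.

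**Figure D4:**
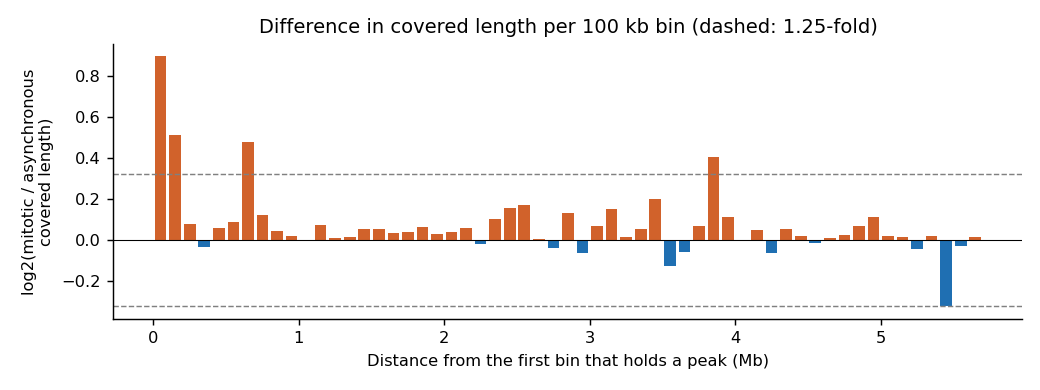
log2 ratio of mitotic over asynchronous covered length in each 100 kb bin, against the distance from the first bin that holds a peak, in Mb; orange bars are higher and blue bars lower in the mitotic list, and dashed lines mark 25% more in either list. Of the bars, 4 pass the upper line, 2 of them at the left end, and 1 just passes the lower line near the right end.

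These bins held long pieces covered in 1 list only, which in some bins were only part of the difference. The outermost bin on the left, from 15500000, went from 13 to 24.3% covered, a ratio of 1.86, and its neighbour from 15600000 went from 62.7 to 89.3%, a ratio of 1.42. The first of these holds a mitotic-only piece of 4299 bp, in an asynchronous gap of 9495 bp with 11 missing calls. The second holds the mitotic peak of 25646 bp that met no asynchronous peak. In the asynchronous list this place is a gap of 36178 bp, from which 9 calls are missing in the running numbers. The bin from 16100000 went from 62.4 to 87.0% (ratio 1.39) and holds 2 pieces of 5625 and 4754 bp covered in the mitotic list only, in an asynchronous gap of 10660 bp with 1 missing call. The bin from 19300000 went from 62.5 to 82.7% (ratio 1.32), with a mitotic-only piece of 6866 bp inside an asynchronous gap of 19432 bp with 4 missing calls. The bin from 18900000 followed, with 67.5 and 77.7% (ratio 1.15). In the other direction the bin from 20900000 went from 77.3 to 61.7%, a log2 ratio of -0.32. It holds asynchronous-only pieces of 8052, 7196 and 3252 bp, in mitotic gaps with 4, 5 and 6 missing calls. The next bins in that direction, from 19000000, 19700000, 18400000 and 19100000, had log2 ratios of only -0.13, -0.06, -0.06 and -0.06. Each of these long pieces lay in a gap of the other list from which calls had been removed, so a missing peak there does not show that nothing was called.

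Missing calls were also found in other gaps, mainly long ones. From the first to the last peak of the block the running numbers count 3026 asynchronous and 2797 mitotic calls, of which 74.1% and 76.1% were listed. Gaps from which at least 1 call is missing made up 551 of 2242 asynchronous gaps but 66.0% of the uncovered length, with a median of 1081 bp against 202 bp for gaps with none missing. The mitotic list had 483 such gaps, out of 2127, with 61.1% of the uncovered length, with medians of 983 and 203 bp. All 13 asynchronous and all 10 mitotic gaps over 5000 bp had missing calls. A gap from which a call was removed includes the width of that call and the spaces beside it. Such gaps are therefore longer by the way they are counted. Only 12% of the block was uncovered in both lists, and the 5 longest such places measured 10332 bp (chr18:15584698-15595029), 9358 bp (chr18:19347897-19357254), 7855 bp (chr18:19162223-19170077), 7280 bp (chr18:15967097-15974376) and 5907 bp (chr18:15626247-15632153). Each of these lay in a gap of either list from which 1 to 9 calls are missing; some of those gaps are longer than the place itself, and where in them the calls had been is not known.

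The sequence covered was largely the same in both conditions, although the peaks' edges were not. The lists shared 3.99 Mb, which is 91.4% of what asynchronous peaks and 88.0% of what mitotic peaks covered, and the Jaccard index was 81.3%. Of the asynchronous peaks 2075 (92.5%, 91.3 to 93.6%) met a mitotic peak by at least 1 bp, and of the mitotic peaks 1933 (90.8%, 89.5 to 92.0%) met an asynchronous one. At a reciprocal overlap of at least 50% these shares were 55.1% and 58.1%. Each list covers most of the block, so most peaks would meet the other list by 1 bp wherever they lay. The shares over the whole lists are not given here, so these are not read as a trait of the array. Joining and splitting of peaks was frequent: 471 mitotic peaks met at least 2 asynchronous peaks, and 384 asynchronous peaks met at least 2 mitotic ones. Only 32.3% of asynchronous starts lay within 50 bp of a mitotic start, and the median distance to the nearest one was 148 bp. The 168 asynchronous peaks without a partner were narrow and weak, with a median width of 394 bp against 1298 bp for those with one, and a median fold enrichment of 5.35 against 9.13. For the 195 mitotic ones the medians were 520 bp against 1420 bp, and 6.75 against 10.7. Sequence covered in 1 list only came to 0.376 Mb for asynchronous and 0.545 Mb for mitotic peaks, mostly as short edges with a median of 102 and 108 bp.

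Set beside the largest dense region of every other chromosome, the chromosome 18 block ranked higher in size than in covered share. Regions were formed by joining peaks of both lists at gaps of at most 100 kb, and by that rule this block was the second longest of 23, after that of chromosome 19 with 5.76 Mb. Its covered length was the highest of the 23 regions in both lists. Its covered share ranked 7th in both lists, its median width 10th and 9th, and its Jaccard index 8th. Median fold enrichment ranked 9th in the asynchronous list, at 8.85 against a median over regions of 8.44, and 6th in the mitotic list, at 10.4 against 8.55. Within each list, 65.5% of the asynchronous and 78.9% of the mitotic peaks of the array were above their list's median fold enrichment. The lists differ in length and in their unstated scaling, so these ranks do not show a change between conditions. The ratio of covered length, 1.04, was the fourth highest, in a range from 0.906 on chromosome 1 to 1.11 on chromosome 12. The regions nearest to it in length were less covered. That of chromosome 19 was covered over 40.2 and 38.1%, and that of chromosome 1, with 5.23 Mb, over 60.4 and 54.7%. Among other long regions, that of chromosome 17 with 4.25 Mb was covered over 43.2 and 42.6%, and that of X with 3.43 Mb over 67.2 and 63.2%. That of chromosome 8, with 2.19 Mb, was covered over 84.9 and 85.2%. These are ranks and values of single lists, with no test.

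**Figure D5:**
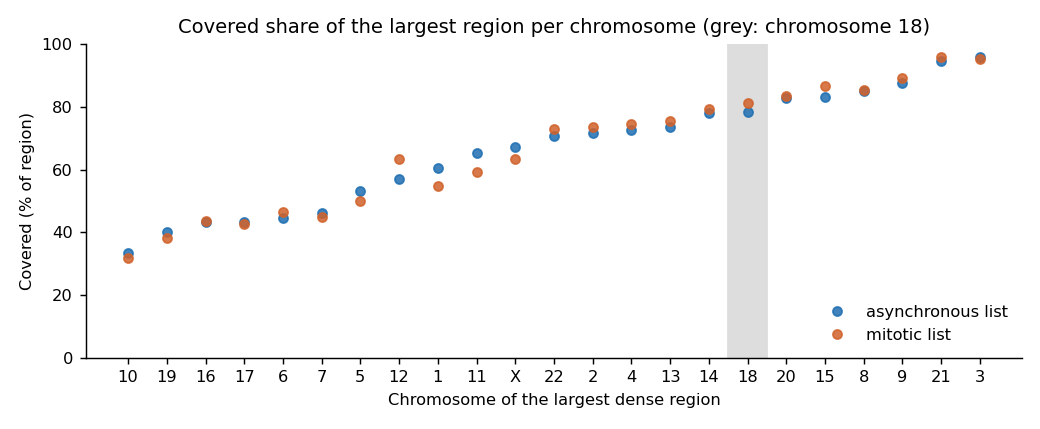
Covered share of the largest dense region of each of 23 chromosomes in the asynchronous (blue) and mitotic (orange) list, ordered by the asynchronous value. Chromosome 18 (grey) is 7th from the top with 78.3 and 81.3%.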

How the data were processed

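Reads were processed into peaks by the authors with fastp, Bowtie2 and MACS2 on build hs1, per the submitters' processing notes. Peaks were called after merging the Odd and Even reads of each condition, per the labels. The sources used here do not give versions, settings, the control library or the placement of reads that fit many repeat copies. The deposited lists have no header, and columns were read from their values and the order of the MACS2 table. The deposited fold enrichment (a ratio) and −log10 q ranked and filtered peaks. The deposited pileup signal and 3 further deposited score columns were not used for results. Positions count from 1, since the deposited width equals end minus start plus 1.

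Covered base pairs were split at bin edges; shift correlations used 10 bp steps. Intervals of shares are Clopper-Pearson, and intervals of medians are binomial order-statistic intervals, at 95%. Bins, peaks and gaps were named by rule: the 5 highest and 5 lowest bins by covered share, 5 bins by log2 ratio in each direction, and the 5 widest and 5 strongest peaks per list and 5 longest gaps. The members and rules were chosen with earlier results of these data known. The low-coverage stretch, the shift correlation and the folding were chosen after the bins had been seen. Alternatives were a fold enrichment of at least 6 with −log10 q of at least 5, the top 75% of peaks, joined peaks, other bins and limits, ends or midpoints, and reciprocal overlap. Code was tested on simulated data. No gene is named, and sequence was not used here. The work used matplotlib 3.10.9, scipy 1.17.1, pandas 2.3.3 and numpy 2.4.6 under Python 3.11.15.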

Additional observations from a re-analysis of the deposited data

How the results depend on the processing

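The ratio of covered length stayed above 1 under all 4 alternatives tried, from 1.04 to 1.07, and the covered length and, except with joined peaks, the number of peaks stayed within 1.5 times. With the stricter limit on peaks, a fold enrichment from 6 and −log10 q from 5 upward, median width was 1421 bp (asynchronous) and 1398 bp (mitotic), the median start distance 2101 and 2046 bp, the Jaccard index 80.2%, the share of asynchronous peaks met 95.5%, and 8 bins were higher and 0 lower in mitotic cells by 25% or more. Peak number, median width and start distance then had the opposite order between the lists. Joining at gaps of at most 100 bp changed nothing, since no gap is that short. Joining at 250 bp, added after the data were seen, left 1150 and 1071 peaks of median width 1920 and 2093 bp and a Jaccard index of 83.2%. A reciprocal overlap of 50% gave 55.1% of asynchronous peaks met. Midpoints gave median distances of 1965 and 2012 bp, and the most frequent distance began at 2000 bp in the asynchronous list in classes of 50 bp, whereas ends gave 4050 bp in the mitotic list. Bins of 50 kb gave 9 higher, bins of 200 kb gave 1 higher and 0 lower, and a 1.5-fold limit 1 higher and 0 lower. The low stretch kept a lower covered share than the other block, at 0.518 to 0.689 times, and the difference between the most and least covered twelfth stayed between 44.3 and 63.8 points, under 2 added alternatives each. Causes were not tested. No paired analysis was possible because each condition has 1 merged list, so no library could be left out either. Depth is unknown, and near-identical copies limit where reads can be placed.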
